A study of Mus musculus with 16 samples.

Results

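Nuclear receptors are transcription factors that carry their own ligand-binding domain, so that a steroid, a fatty acid, an oxysterol or haem can change transcription directly. A set of 10 of their genes with roles in macrophages was followed here: Nr4a1, Nr4a2 and Nr4a3 (the NR4A receptors), Pparg and Ppard (the fatty-acid receptors PPARγ and PPARδ), Rxra (RXRα), Nr3c1 (the glucocorticoid receptor), Nr1d1 and Nr1d2 (the haem-binding repressors REV-ERBα and REV-ERBβ) and Rora (RORα). They were chosen by name, as the rows of these 10 genes among the 27179 gene rows of a table of raw read counts, with Entrez identifiers matched to mouse symbols. All 10 have a row, and 8 of them were among the 12589 genes that passed the filter on low counts. Nr4a3 and Rora did not pass it and were not tested.

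NR4A receptors are made quickly after a stimulus, and no natural ligand is needed for them to act. PPARs bind DNA as pairs with an RXR and drive genes of lipid uptake and fat oxidation, and PPARγ is also known for restraining inflammatory genes in macrophages. The glucocorticoid receptor waits in the cytoplasm with heat-shock chaperones until a steroid binds it, then enters the nucleus and represses many inflammatory genes. REV-ERB and ROR proteins compete for the same DNA elements in clock and inflammatory genes, the first as repressors and the second as activators.

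The cells were iBMDMs, mouse macrophages grown from bone marrow and immortalised, of a line labelled MyD88-AGF, with the genotype given as MyD88-AGF WT in every library. The source of these labels does not explain the tag, and whether the line is a single clone is not stated in the labels. One group was untreated, and the other 3 were given the bacterial glycolipid LPS at 10 ng/mL for 6 h. Of the LPS-treated cells, those with high side scatter were sorted as responders and those with low side scatter as bystanders. The rest of the design was an LPS pool, taken through the cytometer ungated together with the untreated cells and collected after the sorted fractions, so that collection order cannot be told apart from gating. Each of the 4 groups had 4 libraries. The labels do not say whether replicates were separate cultures, so p-values measure the spread between these libraries, which may be technical. In RNA from whole populations, fewer cells of a kind and less RNA per cell cannot be told apart.

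Totals ran from 15287344 to 25193162 counts per library. None of the 10 macrophage markers examined (among them Adgre1, Csf1r and Cd68) was at 0 in any library, and their summed level ran from 3609 to 5101 CPM (counts as a rate, per TMM-scaled library total). In 6 libraries (untreated 1, LPS pool 3 and 4, bystander 3 and 4, responder 1) at most 1 of 15 neural markers was at 0. In the other 10 libraries 4 to 7 of them were. The oligodendrocyte gene Mbp alone had 84.4 to 91.9 CPM in untreated and 34.2 to 50.3 CPM in LPS-treated libraries, and was present in all 16. The other 14 neural markers summed to 18.7 to 31.7 CPM in the 6 libraries and to 5.47 to 10.8 CPM in the other 10. Fibroblast markers summed to 1.94 to 105 CPM, and neutrophil, lymphocyte and dendritic cell markers to at most 1.40, 2.25 and 8.24 CPM. Their part in the results was not tested, except that results were also computed without the 6 libraries.

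Responders and bystanders differed in 6 of the 8 receptor genes tested. Nr1d1, Nr4a1 and Ppard were higher in responders, and Pparg, Nr1d2 and Nr3c1 were lower. Calls rest on edgeR's quasi-likelihood F test over all 16 libraries with Benjamini-Hochberg adjustment over all 12589 genes, at an adjusted p under 0.05. At that threshold 70.0% of all genes tested differed between responders and bystanders, so a share of 75% among the receptors is near the background. The sizes give more detail. The median absolute log2 fold change of the 8 receptors was 1.05, against 0.30 over all genes tested. Of all genes, 2.09% had a larger one than Nr1d1, 4.14% than Nr4a1, 6.45% than Pparg and 8.91% than Nr1d2. The shares were 12.7% for Ppard, 27.4% for Nr3c1, 69.3% for Rxra and 83% for Nr4a2. The receptors were chosen with earlier results of these data known, so these sizes are a description and give no separate support. Against untreated cells, 6 of 8 receptors differed in the LPS pool (71.9% of all genes), 6 of 8 in responders (75.0% of all genes) and 6 of 8 in bystanders (67.1% of all genes). Against the LPS pool, 4 of 8 differed in responders (25.5% of all genes) and 6 of 8 in bystanders (67.0% of all genes). Comparisons with a common group share its libraries.

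**Figure D1:**
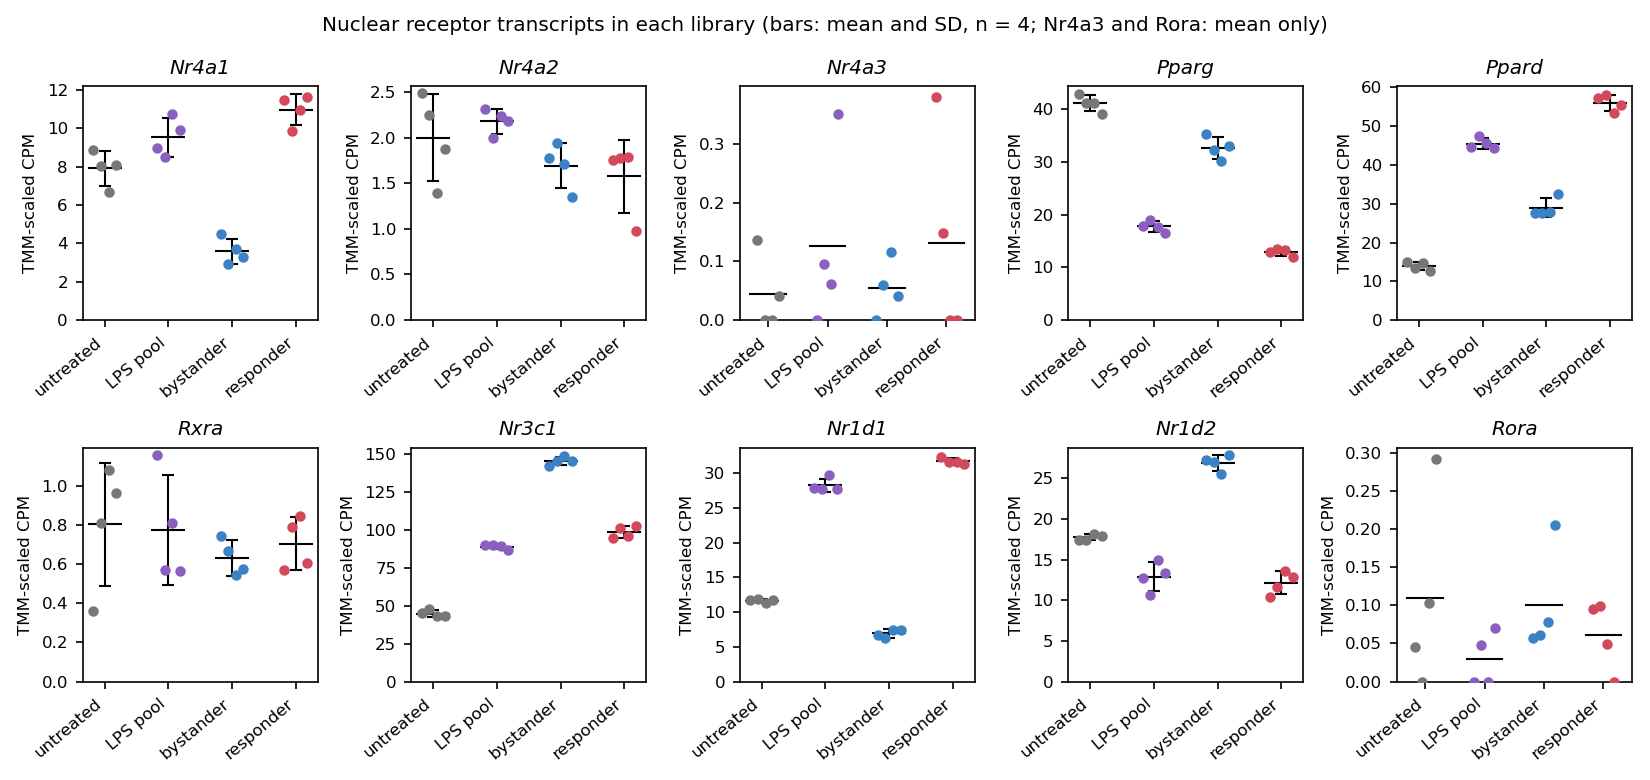
Level of each receptor transcript in every library, in TMM-scaled CPM on a linear axis from 0, by group. Points are libraries and the horizontal bars are group means with SD (n = 4; mean alone for Nr4a3 and Rora). Nr1d1 was highest in responders (31.3 to 32.4 CPM) and Nr3c1 in bystanders (142 to 149 CPM), while Nr4a3 and Rora stayed near 0.

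**Figure D2:**
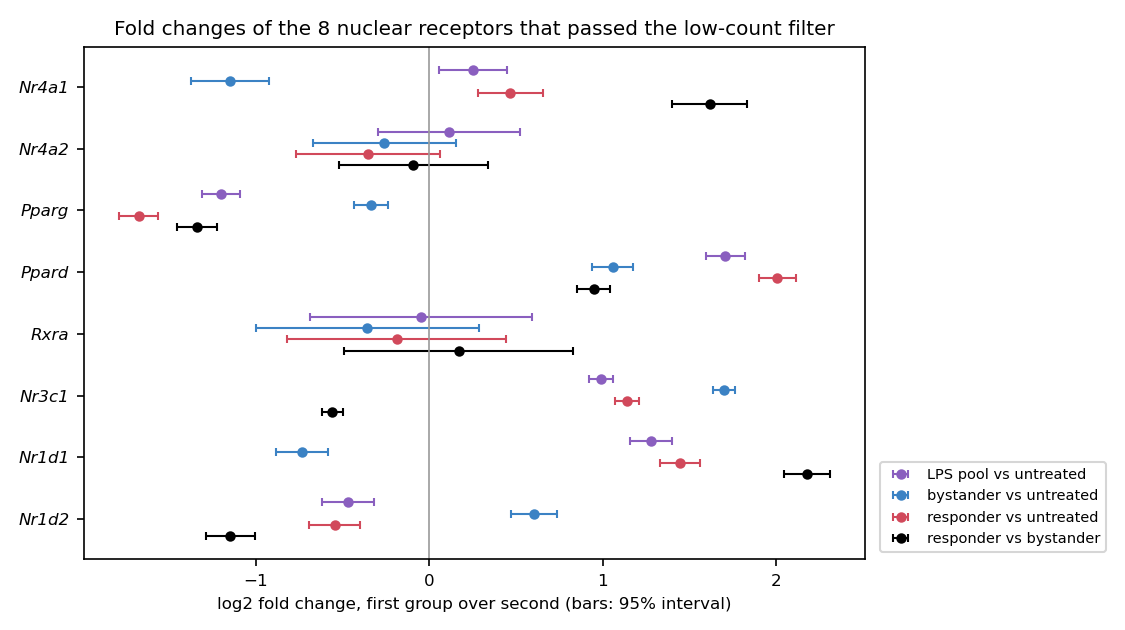
Log2 fold change of the 8 tested receptors in 4 comparisons, with 95% intervals from the edgeR fit, on a log2 axis. The bystander and responder intervals against untreated lie on opposite sides of 0 for Nr4a1, Nr1d1 and Nr1d2, and those of Nr4a2 and Rxra cross 0 in each comparison shown. The values are under TMM scaling, and the responder call of Nr4a1 against untreated was lost under scaling by totals.

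Among the NR4A genes, Nr4a1 (chromosome 15, 101253902 to 101274795 in GRCm38), which encodes NUR77, separated the sorted fractions. It stood at 4.47, 2.91, 3.69 and 3.28 CPM in bystanders and at 11.5, 9.88, 10.95 and 11.6 CPM in responders. Untreated libraries held 8.88, 8.05, 6.69 and 8.10 CPM and the LPS pool 8.95, 8.50, 10.7 and 9.92 CPM. Every bystander library was thus below all others and every responder library above all untreated ones, while the LPS pool overlapped with both untreated cells and responders. Nr4a1 was 3.06-fold higher in responders than in bystanders (log2 1.62 ± 0.11 SE, adjusted p = 2.5e-20 by edgeR) and 2.22-fold lower in bystanders than in untreated cells (adjusted p = 1.22e-13 by edgeR). In responders it was 1.38-fold higher than in untreated cells (adjusted p = 1.69e-05 by edgeR), a call that was lost when libraries were scaled by their totals alone (log2 0.08, adjusted p = 0.43). The LPS pool was 1.19-fold higher than untreated cells (log2 0.25 ± 0.10 SE, adjusted p = 0.0222 by edgeR). That small difference did not hold without LPS pool 3 (log2 0.19, adjusted p = 0.109), without untreated 3 (log2 0.19, adjusted p = 0.108) or without the 6 libraries with neural transcripts (log2 0.19, adjusted p = 0.178), and it was -0.08 under scaling by totals. Responders and the LPS pool did not differ in Nr4a1 at the threshold (log2 0.21, 95% interval 0.02 to 0.40, adjusted p = 0.101 by edgeR), although they did without LPS pool 3 (log2 0.28, adjusted p = 0.0495).

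Nr4a2, which encodes NURR1, passed the test in none of the 6 comparisons. Its libraries held 2.49, 2.25, 1.39 and 1.88 CPM in untreated cells, 2.31, 1.99, 2.23 and 2.18 CPM in the LPS pool, 1.77, 1.94, 1.71 and 1.35 CPM in bystanders and 1.76, 1.78, 1.79 and 0.98 CPM in responders. Responders and bystanders overlapped, with a log2 difference of -0.09 and a 95% interval from -0.52 to 0.34. Both sorted groups lay below every LPS pool library without overlap, yet neither difference passed (log2 -0.47, adjusted p = 0.113 for responders and -0.37, adjusted p = 0.121 for bystanders, by edgeR). Against untreated cells responders were at log2 -0.35 (adjusted p = 0.127), which passed under scaling by totals (log2 -0.74, adjusted p = 0.00136) and without untreated 3 (log2 -0.48, adjusted p = 0.0478). It had 21 to 55 reads per library, which limits what this depth can show. Nr4a3, which encodes NOR1, had 28 reads in all 16 libraries together: 4 in untreated cells, 8 in the LPS pool, 5 in bystanders and 11 in responders. It was at 0 in 6 libraries, and 21 of its 28 reads came from the 6 libraries with neural transcripts.

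The promoters of the NR4A genes are known for cyclic AMP response elements (CREs), which bind CREB, and the windows of Nr4a1 and Nr4a2 are shown because these genes share that feature while their transcripts differed in behaviour. The sequences are the 250 bases before the start site in RefSeq's GRCm38.p6 table, 5′ to 3′ on the gene's strand, with each CRE core (TGACG, or CGTCA on the other strand) in capitals. The Nr4a1 window (chr15:101266596-101266845, + strand) lies in an intron of a longer Nr4a1 transcript in GENCODE M21, and the Nr4a2 window (chr2:57124004-57124253, − strand) lies directly before the gene.
Nr4a1: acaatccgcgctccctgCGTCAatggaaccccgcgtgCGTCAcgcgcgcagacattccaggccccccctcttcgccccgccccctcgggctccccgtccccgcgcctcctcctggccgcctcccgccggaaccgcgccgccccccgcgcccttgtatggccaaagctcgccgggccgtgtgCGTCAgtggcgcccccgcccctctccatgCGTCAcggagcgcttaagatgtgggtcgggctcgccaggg
Nr4a2: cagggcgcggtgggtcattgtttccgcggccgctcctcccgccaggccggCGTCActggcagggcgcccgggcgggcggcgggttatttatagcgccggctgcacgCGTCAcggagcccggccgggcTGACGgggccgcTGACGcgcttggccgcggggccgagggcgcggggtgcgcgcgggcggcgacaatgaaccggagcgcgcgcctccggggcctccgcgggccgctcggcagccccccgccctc
Each window holds 4 cores that do not overlap one another. Counting from -1 at the base before the start, their leftmost bases are at -233, -213, -69 and -40 for Nr4a1 and at -200, -144, -123 and -111 for Nr4a2. The Nr4a3 window also holds 4, at -231, -213, -205 and -147, and 152 of its 250 bases lie in annotated exon of GENCODE M21. Of 32851 promoter windows of the same length, 17.8% hold at least 1 core and 45 windows (0.137%) hold at least 4, a number looked up after the NR4A windows had been read. The complete palindrome TGACGTCA is in none of the 3 windows and in 1.55% of all. The 3 windows are also rich in G and C, at 74.4% for Nr4a1, 80.0% for Nr4a2 and 63.6% for Nr4a3. A match describes the letters and is not shown to be a bound site.

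Other immediate-early genes and CREB targets did not move together between the sorted fractions. Of 20 tested, 8 were higher in responders and 7 lower, the other 5 failed the test, and the median log2 was -0.17 against -0.01 over all genes. Rgs2, a brake on G-protein signalling, was 8.11-fold lower in responders, at 47.3 CPM against 383 CPM (adjusted p = 1.47e-64 by edgeR). Pde4b, a phosphodiesterase that breaks down cyclic AMP, was 6.21-fold higher (adjusted p = 7.57e-46), and Atf3, a stress-induced repressor, was 1.82-fold higher. Against untreated cells the LPS pool had 13 higher and 3 lower (median log2 0.79, against -0.03 over all genes), among them Zfp36, which encodes the mRNA-decay factor tristetraprolin, at 10.4-fold, Atf3 at 5.81-fold and Junb at 3.56-fold. Bystanders against untreated cells had 14 higher and 2 lower. Under scaling by totals these 3 counts were 8 higher and 10 lower between the sorted fractions, 11 and 4 for the pool, and 13 and 5 for bystanders against untreated cells. Over all genes tested, 70.0%, 71.9% and 67.1% were called in these 3 comparisons, in the same order. Of those calls 49.5%, 47.4% and 50.9% were higher, or 27.8%, 21.6% and 27.5% of the calls under scaling by totals. Nr4a1 was lower in bystanders than in untreated cells and is not on this list.

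The PPAR genes moved in opposite directions. Pparg (chromosome 6, 115360879 to 115490404) held 42.9, 41.3, 41.3 and 39.2 CPM in untreated cells, 35.3, 32.3, 30.2 and 33.0 CPM in bystanders, 17.8, 18.9, 17.7 and 16.6 CPM in the LPS pool and 12.9, 13.5, 13.2 and 11.9 CPM in responders. No group overlapped with another. Pparg was 2.53-fold lower in responders than in bystanders (log2 -1.34 ± 0.06 SE, adjusted p = 1.71e-29 by edgeR) and 3.20-fold lower in responders than in untreated cells (adjusted p = 1.06e-35). Bystanders were 1.26-fold below untreated cells (adjusted p = 1.19e-08 by edgeR), and the LPS pool was 2.30-fold below them (adjusted p = 1.48e-28).

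Ppard (chromosome 17, 28232754 to 28301469) ran in the reverse order. Untreated cells held 14.95, 13.5, 14.8 and 12.7 CPM, bystanders 27.7, 27.6, 27.9 and 32.6 CPM, the LPS pool 44.8, 47.4, 45.6 and 44.3 CPM, and responders 57.3, 58.0, 53.4 and 55.6 CPM. Again no group overlapped with another. Ppard rose 4.01-fold in responders and 2.08-fold in bystanders against untreated cells (adjusted p = 8.24e-41 and 4.09e-24 by edgeR), and the sorted fractions differed 1.93-fold (log2 0.95 ± 0.05 SE, adjusted p = 4.07e-26). Per kilobase of annotated exon, Pparg stood at 13.9 CPM and Ppard at 1.86 CPM in untreated cells, while in responders Pparg stood at 4.36 CPM and Ppard at 7.46 CPM per kilobase. The more abundant PPAR transcript per length was thus Pparg in untreated cells and bystanders (11.1 against 3.85 CPM per kilobase) and Ppard in responders. In the LPS pool both were at about one level, 6.02 and 6.06 CPM per kilobase.

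Rxra, which encodes a DNA-binding partner of the PPARs, was scarce. It had 233 reads in all 16 libraries, 8 to 23 in each, and means of 0.80 CPM in untreated cells, 0.77 in the LPS pool, 0.63 in bystanders and 0.70 in responders. Its groups overlapped in all comparisons and none passed the test. For responders against bystanders the log2 difference was 0.17, with a 95% interval from -0.49 to 0.83 that leaves room for changes of either sign, and its sign turned under scaling by totals (-0.02). Rxrb, another RXR gene, held 13.8 to 21.9 CPM per kilobase of exon across the groups, against 0.116 to 0.147 for Rxra. Rxrb was lower in the LPS pool than in untreated cells (log2 -0.50, adjusted p = 8.72e-20 by edgeR) and slightly lower in responders than in bystanders (log2 -0.12, adjusted p = 0.00245).

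Known PPAR targets were called in both directions. Responders exceeded bystanders in 6 of 17 tested and fell short in 11 (median log2 -0.22), and under scaling by totals 2 were higher and 13 lower. Over all genes tested 70.0% were called there, 49.5% of them higher, or 27.8% of the calls under scaling by totals. Fabp4, a fatty-acid carrier, held 146 CPM in responders and 64.2 CPM in bystanders, 2.27-fold more (adjusted p = 4.68e-40 by edgeR). Plin2, a lipid-droplet coat protein gene, was 1.40-fold higher, and Lpl, which encodes lipoprotein lipase, was 1.32-fold lower. The LPS pool against untreated cells had 7 higher and 8 lower (4 and 13 under scaling by totals), with Fabp4 4.46-fold higher, Plin2 1.78-fold higher and Angptl4, an inhibitor of lipoprotein lipase, 3.48-fold lower. For the pool 71.9% of all genes were called, 47.4% of them higher, or 21.6% of the calls under scaling by totals. The counts of this list under that scaling are thus near the background. Fabp4 rose where Pparg fell, in both comparisons.

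Among targets of the oxysterol receptors LXR and their RXR partners, more were lower than higher. Of 14 tested, 8 were lower and 4 higher in responders than in bystanders (median log2 -0.33), or 10 and 4 under scaling by totals (median -0.52). The LPS pool against untreated cells had 8 lower and 4 higher (median log2 -0.45), or 11 and 2 under scaling by totals (median -0.78). Of all genes tested, 70.0% and 71.9% were called in these 2 comparisons, 49.5% and 47.4% of them higher. Under scaling by totals 27.8% and 21.6% of the calls were higher. The desaturase genes Scd1 and Scd2 were 2.45-fold and 2.27-fold lower in responders, and the small GTPase gene Arl4c was 3.40-fold lower. Against untreated cells the LPS pool was 2.70-fold lower in Scd2 and 1.93-fold lower in Scd1, and 2.59-fold higher in the transglutaminase gene Tgm2. Nr1h3, which encodes LXRα, itself went the other way: it was 2.44-fold higher in responders than in bystanders.

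Nr3c1 (chromosome 18, 39410545 to 39519421), the glucocorticoid receptor gene, was higher in LPS-treated cells of every kind and highest in bystanders. Among the 8 receptors tested it was the only one with this order. Untreated cells held 45.1, 48.1, 42.9 and 43.2 CPM and the LPS pool 89.8, 90.2, 89.1 and 86.6 CPM. Responders held 94.8, 101, 96.1 and 103 CPM and bystanders 142, 145, 149 and 145 CPM. No group overlapped with another, and the pool lay below both sorted fractions although it was made of LPS-treated cells as they were. Against untreated cells Nr3c1 rose 3.24-fold in bystanders (log2 1.70 ± 0.03 SE, adjusted p = 2.13e-48 by edgeR), 2.201-fold in responders (adjusted p = 4.76e-38) and 1.99-fold in the pool (adjusted p = 8.2e-34). Responders were 1.47-fold below bystanders (log2 -0.56 ± 0.03 SE, adjusted p = 3.36e-25 by edgeR). Over the pool, responders were higher by log2 0.15 (adjusted p = 0.000313) and bystanders by log2 0.71 (adjusted p = 2.93e-29). Collection order goes with both of these last differences. Rara, a retinoic acid receptor gene outside this set, had its extremes in the same groups, at 18.9 CPM in untreated cells and 28.4 CPM in bystanders. Between them, the LPS pool held 24.9 CPM and responders 25.3 CPM of Rara. Against untreated cells Rara was called higher in each LPS-treated group. Under scaling by totals it was called in bystanders alone (log2 0.41, adjusted p = 9.88e-09).

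Targets of the glucocorticoid receptor were called in both directions. Responders exceeded bystanders in 9 of 15 tested and fell short in 4 (median log2 0.29), or in 8 and 4 under scaling by totals (median 0.10). Over all genes tested 70.0% were called in that comparison, 49.5% of them higher. Nfkbia, which encodes the NF-κB inhibitor IκBα, was 6.62-fold higher, Per1 2.02-fold and Zfp36 1.70-fold higher, and these 3 also answer to other signals. The LPS pool against untreated cells had 8 higher and 4 lower (median log2 0.49), or 7 and 7 under scaling by totals (median 0.16), with Zfp36 10.4-fold, the phosphatase gene Dusp1 3.73-fold and the cell-cycle inhibitor gene Cdkn1a 2.09-fold higher. Fkbp5 and Tsc22d3, targets of the receptor in many tissues, were chosen after their values were seen. Fkbp5 was 1.46-fold lower in bystanders than in untreated cells, where Nr3c1 was highest (log2 -0.54, adjusted p = 2.3e-19 by edgeR), and Tsc22d3 was higher there (log2 0.42, adjusted p = 3.3e-09).

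The chaperones that hold the glucocorticoid receptor were higher in responders than in bystanders, while the receptor's transcript was lower. Of 10 tested, 10 were higher (median log2 0.32), or 7 higher and 1 lower under scaling by totals. In that comparison 70.0% of all genes tested were called, 49.5% of them higher (27.8% of the calls under scaling by totals). Against untreated cells responders had 6 higher and 2 lower (3 and 5 under scaling by totals). Bystanders had 0 higher and 7 lower against them (0 and 10 under scaling by totals). Over all genes tested, 75.0% were called in responders and 67.1% in bystanders, each against untreated cells. Of those calls 48.7% and 50.9% were higher, or 21.7% and 27.5% of the calls under scaling by totals. The sizes that follow are for responders against bystanders. Dnajb1, an HSP40 co-chaperone, was higher by log2 1.07, the HSP70 gene Hspa8 by 0.83 and the kinase co-chaperone gene Cdc37 by 0.53. In the LPS pool against untreated cells 6 were higher and 3 lower with a median log2 of 0.30, which turned to -0.03 under scaling by totals (3 higher, 5 lower). For the pool 71.9% of all genes were called, 47.4% of them higher (21.6% of the calls under scaling by totals).

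The REV-ERB pair moved in opposite directions. Nr1d1 (chromosome 11, 98767932 to 98775377) held 11.7, 11.8, 11.3 and 11.7 CPM in untreated cells, 6.64, 6.24, 7.41 and 7.42 CPM in bystanders, 27.9, 27.7, 29.7 and 27.7 CPM in the LPS pool, and 32.4, 31.6, 31.6 and 31.3 CPM in responders. The groups did not overlap, and bystanders lay below untreated cells while responders lay above them. It was 4.52-fold higher in responders than in bystanders (log2 2.18 ± 0.07 SE, adjusted p = 8.52e-38 by edgeR), the largest difference among the 8 receptors in that comparison. Against untreated cells it was 2.72-fold higher in responders (adjusted p = 4.97e-31) and 1.66-fold lower in bystanders (adjusted p = 6.87e-13). Responders exceeded the LPS pool by log2 0.17 (adjusted p = 0.0162), which did not hold without LPS pool 2 (log2 0.16, adjusted p = 0.0513) or under scaling by totals (log2 0.11, adjusted p = 0.122).

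Nr1d2 (chromosome 14, 18204056 to 18239106) was highest where Nr1d1 was lowest. Bystanders held 27.3, 27.03, 25.5 and 27.8 CPM, untreated cells 17.4, 17.4, 18.2 and 17.9 CPM, the LPS pool 12.8, 10.6, 14.96 and 13.3 CPM, and responders 10.4, 11.7, 13.6 and 12.9 CPM. The pool and responders overlapped, and the other groups did not overlap with any. Nr1d2 was 2.22-fold lower in responders than in bystanders (log2 -1.15 ± 0.07 SE, adjusted p = 7.48e-22 by edgeR), 1.52-fold higher in bystanders than in untreated cells (adjusted p = 6.84e-12) and 1.46-fold lower in responders than in untreated cells (adjusted p = 3.12e-09). Responders and the pool did not differ at the threshold (log2 -0.08, 95% interval -0.24 to 0.09). Per kilobase of exon, Nr1d1 stood at 10.3 CPM and Nr1d2 at 2.24 CPM in responders, against 2.25 and 4.98 CPM per kilobase in bystanders.

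The last exons of Nr1d1 and Thra, the thyroid hormone receptor gene, overlap on opposite strands. In GENCODE M21, 263 of the 3077 exon bases of Nr1d1 are shared in this way, and the strand setting of the counting is not given in the sources used here, so reads from that stretch cannot be told apart. Thra held 25.3 CPM in responders and 15.7 CPM in bystanders, 1.61-fold more (log2 0.69, adjusted p = 2.77e-15 by edgeR), and did not differ between bystanders and untreated cells at the threshold (log2 -0.02, adjusted p = 0.85), where Nr1d1 fell. Under scaling by totals Thra was called lower there too (log2 -0.21, adjusted p = 0.00397).

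The promoter windows of this pair are shown because the genes moved in opposite directions. Both are 250 bases of RefSeq's GRCm38.p6 table, 5′ to 3′ on the gene's strand (chr11:98775378-98775627, − strand, and chr14:18239107-18239356, − strand). The capitals mark the nuclear receptor hexamer AGGTCA, on which REV-ERB, ROR, PPAR and RXR proteins bind when it has the right neighbours.
Nr1d1: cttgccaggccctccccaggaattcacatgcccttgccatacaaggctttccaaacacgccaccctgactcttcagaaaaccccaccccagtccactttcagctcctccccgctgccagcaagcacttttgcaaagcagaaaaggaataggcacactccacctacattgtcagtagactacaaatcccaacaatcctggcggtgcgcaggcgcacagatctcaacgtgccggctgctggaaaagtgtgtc
Nr1d2: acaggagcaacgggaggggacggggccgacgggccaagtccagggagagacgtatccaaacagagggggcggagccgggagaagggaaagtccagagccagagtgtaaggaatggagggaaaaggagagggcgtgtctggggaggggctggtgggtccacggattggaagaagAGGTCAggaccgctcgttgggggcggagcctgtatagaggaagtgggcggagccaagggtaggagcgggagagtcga
The Nr1d2 window holds 1 AGGTCA match, at -77, and the Nr1d1 window holds none on either strand. Of the 32851 windows, 14.0% hold at least 1. The E-box CACGTG, on which CLOCK and BMAL1 bind, is in neither window and in 6.02% of all. These letters describe the windows alone, and elements farther from the start site were not examined.

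Rora had 26 reads in all libraries together (10 in untreated cells, 2 in the LPS pool, 9 in bystanders and 5 in responders), with 0 to 7 per library and 4 libraries at 0. It did not pass the filter on low counts, so its differences were not tested. Other clock genes were split: responders exceeded bystanders in 7 of 17 tested and fell short in 7 (median log2 -0.07), or in 6 and 8 under scaling by totals (median -0.26). Over all genes tested 70.0% were called there, 49.5% of them higher (27.8% of the calls under scaling by totals). The repressor genes Cry2 and Per1 were 2.29-fold and 2.02-fold higher, and Tef, a clock-controlled activator gene, was 1.84-fold lower. In the LPS pool against untreated cells 4 were higher and 8 lower (median log2 -0.15), or 1 and 12 under scaling by totals (median -0.48), with Per1 1.71-fold higher, Tef 2.11-fold lower and the repressor gene Bhlhe40 1.58-fold lower. For the pool 71.9% of all genes were called, 47.4% of them higher (21.6% of the calls under scaling by totals). Arntl, which encodes BMAL1 and is repressed by REV-ERB proteins in many tissues, was chosen after its values were seen. Its log2 value was -0.16 in responders against bystanders (adjusted p = 0.0385 by edgeR, with overlapping groups), or -0.35 under scaling by totals (adjusted p = 1.44e-05). In bystanders against untreated cells it was 0.26 (adjusted p = 0.00103), or 0.07 under scaling by totals (adjusted p = 0.384).

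Among 39 other nuclear receptor genes listed, 14 passed the filter on low counts. Responders were higher than bystanders in 6 and lower in 4 (5 and 5 under scaling by totals), and the LPS pool was higher than untreated cells in 6 and lower in 4 (3 and 7). Over all genes tested, 70.0% and 71.9% were called in these comparisons. Of those calls 49.5% and 47.4% were higher, or 27.8% and 21.6% of the calls under scaling by totals. Rarg, a retinoic acid receptor gene, had 22.6 CPM in responders and 5.60 CPM in bystanders, a 4.03-fold difference, and stood at 11.7 CPM in untreated cells, so that it lay on the same sides of untreated cells as Nr1d1 and Nr4a1 did. Nr1h3 had the same order at 63.5, 26.0 and 37.7 CPM in responders, bystanders and untreated cells. Esrra, an orphan receptor gene of mitochondrial programmes, was higher in responders than in bystanders (log2 0.78, adjusted p = 2.52e-30 by edgeR). It too had this order, at 88.0, 51.5 and 74.6 CPM in responders, bystanders and untreated cells. Under scaling by totals responders lay below untreated cells in Esrra (log2 -0.15, adjusted p = 2.23e-05 by edgeR). Its value for the LPS pool against untreated cells was 0.12 and turned to -0.21 under scaling by totals. Nr0b2, which encodes SHP, was lower in the pool than in untreated cells (log2 -1.31, adjusted p = 4.48e-07) but stood at 3.14 CPM or less in each group. In both comparisons that share no library, Nr3c1 was called with opposite signs, and so was Rara (log2 -0.17 in responders against bystanders and 0.41 in the pool against untreated cells, the latter 0.08 and not called under scaling by totals). The other 5 of the 6 receptors called in both had the same sign, or 83.3%, and among all 7079 genes called in both 81.9% did. Among the 5 is Nr4a1, which was not called in the pool against untreated cells under scaling by totals (log2 -0.08, adjusted p = 0.488 by edgeR).

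**Figure D3:**
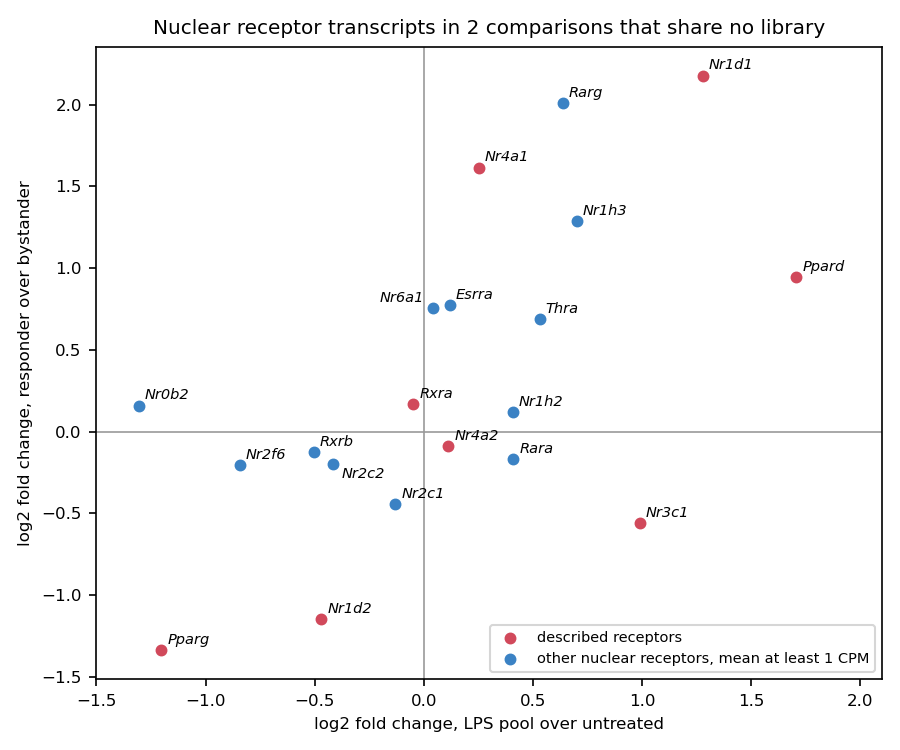
Log2 fold change of nuclear receptor transcripts for the LPS pool over untreated cells (x axis) against responders over bystanders (y axis). Each point is a gene: 8 are the tested receptors described here and the others are nuclear receptor genes with a mean of at least 1 CPM. Nr1d1 and Rarg lie at the top right, Pparg at the lower left, and Nr3c1 at the lower right.

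Coregulators, the proteins that receptors recruit to open or close chromatin, were more often called lower than higher in responders. Of 21 tested, 4 were higher and 10 lower than in bystanders (median log2 -0.18), or 2 and 17 under scaling by totals. The share called was near the background, as 70.0% of all genes tested were called there. Of those calls 49.5% were higher, or 27.8% of the calls under scaling by totals. Ep300, an acetyltransferase coactivator gene, was 2.24-fold lower, at 53.2 against 119 CPM, with untreated cells at 60.6 CPM. The coactivator gene Ncoa3 was 1.45-fold lower and Ncoa4, which also encodes the ferritin receptor of autophagy, 1.61-fold lower. Against untreated cells the LPS pool had 5 higher and 11 lower (2 and 17 under scaling by totals). In that comparison 71.9% of all genes were called, 47.4% of them higher (21.6% of the calls under scaling by totals). There the acetyltransferase gene Kat2b was 2.09-fold higher, Ncoa4 1.66-fold lower and Tbl1xr1, a corepressor subunit gene, 1.40-fold lower.

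**Figure D4:**
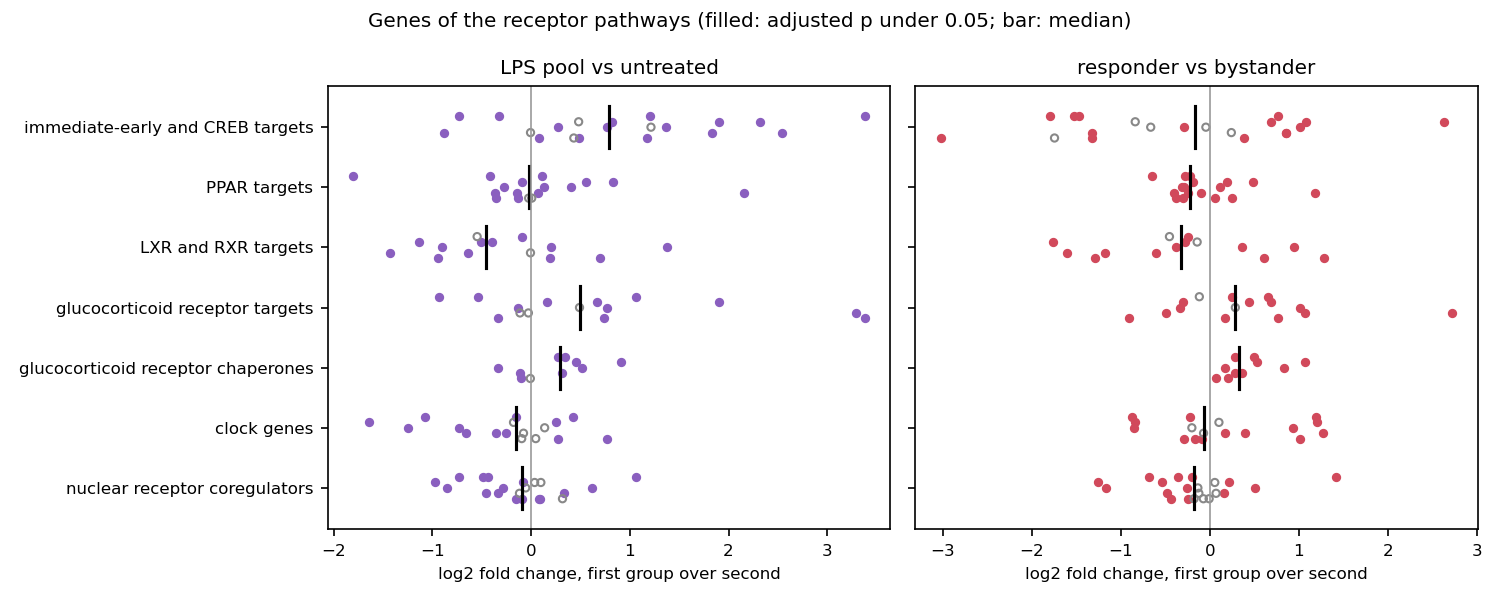
Log2 fold changes of the tested genes of 7 receptor pathway lists, for the LPS pool over untreated cells (left) and responders over bystanders (right). Each circle is a gene, filled where the adjusted p was under 0.05, and the black bar is the list's median. The chaperone list is the one whose genes all lie above 0 on the right, and Rgs2 is the lowest immediate-early point there at -3.02.

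The genes whose levels ran most like each receptor's were ranked by Pearson's r of log2 CPM over the 16 libraries, among 9553 genes with a mean of at least 5 CPM. The libraries fall into 4 groups and share their group's level, so r is given as a description. The closest were Pdgfb, Stab1 and Nfkbie for Nr1d1 (r = 0.998, 0.996 and 0.996) and Tmem229b, Trim21 and Ifi207 for Nr3c1 (0.997 for each). For Ppard they were Parp8, Rybp and Niban1 (0.997, 0.995 and 0.995) and for Pparg Myo1f, Kif11 and Ptgs1 (0.995, 0.993 and 0.993). Nr4a1 ran closest to Tshz1, Def6 and Zswim1 (0.975, 0.975 and 0.970) and Nr1d2 to St8sia4, Klhl9 and Pfkm (0.974, 0.970 and 0.969). For the scarce receptors the best values were lower: Nkapd1, B9d2 and Erg28 for Nr4a2 (0.758, 0.742 and 0.724) and Kdm8, Zfyve27 and Pibf1 for Rxra (0.700, 0.637 and 0.609).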

How the data were processed

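RNA sequencing of 16 libraries (4 groups of 4) gave 1 table of raw read counts per gene, deposited by the authors. The tools were featureCounts 2.1.1, HISAT2 2.2.2, fastp 1.1.0 and cutadapt 3.7 and the build was GRCm38 (mm10), per the submitters' processing notes. For the annotation, strand setting and multiply mapped reads, settings were not given in the sources used here. Of 27179 Entrez rows, 25275 were matched to symbols through RefSeq's GRCm38.p6 gene table. Unmatched rows (1904, with 0.399% of counts) were kept in the tests. The table has 3 empty columns.

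Counts were fitted in edgeR 4.0.16 (R 4.3.3, limma 3.58.1) with filterByExpr, TMM scaling and a robust quasi-likelihood model of 1 mean per group over all 16 libraries. The two-sided F tests were adjusted by Benjamini-Hochberg over 12589 genes, and adjusted p under 0.05 was called. Adjusted p-values without a tool's name are from this test. SE is the absolute log2 fold change divided by the root of F, and 95% intervals are 1.96 SE either way. Levels are TMM-scaled CPM, and levels per kilobase use the union of GENCODE M21 exons. Within groups, replicate pairs differed by 1.61 to 3.12 chi-square units per degree of freedom, so none was a duplicate. The code was tested on simulated counts.

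Named beside the receptors were nuclear receptor genes with a mean of at least 1 CPM, in each list the 3 genes of lowest p in 2 comparisons (responder against bystander, LPS pool against untreated; mean at least 1 CPM), and the 3 most similar genes per tested receptor. The receptors and lists were chosen with earlier results of these data known. Alternatives were scaling by library totals, DESeq2 size factors, DESeq2 1.42.0, no count filter, only the groups compared, a replicate block, 10 libraries without neural transcripts and leaving out each library.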

Additional observations from a re-analysis of the deposited data

Results flagged for a closer look

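In TMM-scaled CPM, Nr4a1, Nr1d1 and Nr1d2 had every responder library on one side of all untreated libraries and every bystander library on the other. For Nr4a1 the responder side depends on the scaling. Under scaling by totals responders and untreated cells did not differ in it at the threshold (log2 0.08, adjusted p = 0.43 by edgeR). The share of all genes tested that meets this rule was not computed. Among the other nuclear receptor genes, the means of Rarg, Nr1h3 and Esrra also lay on opposite sides of untreated cells, with both differences called. For Esrra the responder difference turned under scaling by totals (log2 -0.15). The means of Thra, Nr6a1 and Nr2c1 lay on opposite sides too, without both differences called. The direct difference between responders and bystanders was tested with edgeR, at log2 1.62 for Nr4a1, 2.18 for Nr1d1 and -1.15 for Nr1d2, and passed for each. The flag itself requires these groups to lie apart, so that the test passed gives no separate support.

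In 4 of 40 groups examined, 1 library stood apart from the other 3 by Dixon's test for 4 values, and chance gives this in about 1 of 20 groups. Nr4a2 was at 0.980 CPM in responder 4, with the next responder at 1.76 CPM. Ppard was at 32.6 CPM in bystander 4, next to 27.9 CPM. Nr1d1 was at 29.7 CPM in LPS pool 3, next to 27.9 CPM. Rora was at 0.205 CPM in bystander 4, next to 0.0776 CPM, on 5 reads. LPS pool 3 and bystander 4 are among the 6 libraries with neural transcripts, and whether that plays a part was not tested.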

How the results depend on the processing

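The number of receptors called stayed within 1.5 times its main value in each of the 6 comparisons under every alternative run, and DESeq2, DESeq2 size factors, no count filter, fits of only the groups compared and a replicate block changed no call and no direction among the receptors. Replicate numbers did not pair the libraries across all groups, but some same-numbered libraries ran alike. Deviations of same-numbered libraries correlated at -0.47 to 0.60 over 24 pairs (median 0.003, against 0.11 for different numbers), 12 of them over 0.1. In every other group alike, 4 of 16 libraries correlated best with their own number. Col1a1, a fibroblast marker, was chosen after its values were seen. By number it ran alike in untreated cells (12.4, 4.45, 17.6 and 6.22 CPM) and responders (14.1, 4.89, 18.2 and 6.72 CPM). So did the LPS pool (5.54, 1.85, 73.6 and 5.07 CPM) and bystanders (4.92, 1.70, 53.7 and 3.12 CPM). Members called for responder against bystander were 6 with the replicate block, as without it. Scaling by library totals moved the median of all genes from -0.01 to -0.20 (responder against bystander) and from -0.03 to -0.36 (LPS pool against untreated), and the share of calls that were higher from 49.5% to 27.8% and from 47.4% to 21.6%. In the other 4 comparisons that share went from 48.7% to 21.7% (responder against untreated), 50.9% to 27.5% (bystander against untreated), 62.7% to 30.6% (responder against LPS pool) and 50.9% to 68.4% (bystander against LPS pool).

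Directions turned for values that had not passed and for Nr4a1 in the LPS pool against untreated, and the causes were not tested. Under scaling by totals the log2 values were -0.0198 for Rxra in responders against bystanders, and -0.0762 for Nr4a1 and -0.21 for Nr4a2 in the LPS pool against untreated. Under the same scaling Nr4a2 in bystanders against untreated passed at -0.45 (adjusted p = 0.0492). Without the 6 libraries with neural transcripts Nr4a2 in bystanders against untreated was at 0.0012 and Nr1d2 in responders against the LPS pool at 0.13. Leaving out 1 library at a time, Nr4a2 ran from -0.188 (without bystander 4) to 0.0878 (responder 4) in responders against bystanders and from -0.0141 (untreated 3) to 0.237 (untreated 1) in the LPS pool against untreated. In the latter Rxra ran from -0.305 (LPS pool 1) to 0.118 (untreated 3), and it was also above 0 without LPS pool 2, LPS pool 4 or untreated 4. In responders against the LPS pool Rxra ran from -0.280 (LPS pool 2) to 0.121 (LPS pool 1) and Nr1d2 from -0.174 (LPS pool 2) to 0.0044 (LPS pool 3). Few reads limit Nr4a2 and Rxra, and Nr4a3 and Rora did not pass the filter and were not tested in the main fit.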
